A study of Mus musculus with 6 samples.

Results

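Bst2 encodes tetherin, an interferon-induced membrane protein that holds budding enveloped viruses on the cell surface. It was set here beside 8 other interferon response genes, Ifi27, Stat2, Irf1, Irf7, Irf9, Ifit1, Isg15 and Ifitm3, to ask whether its difference between magnetically exposed and untreated hepatocytes was shared by them. The 9 genes were chosen by name, out of 23886 genes in the table, and Bst2 was picked for its difference between the groups. The values of that comparison therefore stand as a description for these 9 genes. All 9 were in the table, and 5 passed the filter on low values, which asked for 3 or more of the 6 libraries at 1 FPKM or above and left 11114 genes. FPKM, the authors' unit, is the number of fragments per kilobase of gene, scaled to the library total.

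Poly(A) RNA was sequenced from AML12, a hepatocyte line from the liver of mice transgenic for human transforming growth factor alpha. The libraries SMF 1, 2 and 3 came from cells held in a static magnetic field, one that stays constant over time, and Control 2, 3 and 4 from cells with no treatment. Both groups were the same line, and the sources used here do not give the strength of the field or how long it was applied. No label says whether libraries came from separate cultures, so p-values measure the spread between these libraries, which may be technical. Library totals, recovered from the FPKM values, ran from 15514530 to 17969397 reads in the SMF group and from 16601816 to 18200516 in the control group. Reads in listed genes made up 99.98% of each total, and the number of reads sequenced is not known here. Hepatocyte genes were mixed: Hnf4a, the hepatocyte nuclear factor, averaged 91.4 ± 1.95 FPKM in SMF and 91.6 ± 4.32 in control libraries (SD, n = 3 each), while Apoa2 was listed at 0 in all 6. Bst2 is also a surface marker of mouse plasmacytoid dendritic cells; of 7 other markers of those cells in the table, 6 were under 1 FPKM in every library, and the summed level of the 7 ran from 1.35 to 1.75 FPKM in SMF and from 1.39 to 1.48 FPKM in control libraries. Fewer cells of a type and less RNA per cell cannot be told apart in such bulk samples.

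Type I and type III interferons bind their receptors and activate JAK kinases, which phosphorylate STAT proteins. STAT2 and IRF9 are parts of ISGF3, a complex that binds the interferon-stimulated response element (ISRE) in the promoters of genes such as Ifit1 and Isg15. Interferon gamma acts mainly through the gamma-activated site (GAS), for example at Irf1. In hepatocytes this system restrains viral infection, and many of its target genes are nearly silent without a signal.

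The promoter sequences are shown because Bst2 shares the letters of the ISRE with Stat2, Ifit1, Isg15 and Ifitm3. RefSeq promoters (build GRCm38.p6, 250 bases before to 50 after each start) were found for 8 of the 9 genes, all but Ifi27. The letters searched were GAAA, any 2 bases and GAAA again for the ISRE, on both strands, and TTC, any 3 bases and GAA for GAS, which reads the same on both strands. Of 32851 promoters, 3.44% held the first and 8.30% the second. Capitals mark the matches, and positions count from the start of the gene, negative before it. The first pair of sequences are the 250 bases before the starts of Bst2 (chr8:71537473-71537722, minus strand) and of Irf1 (chr11:53769764-53770013, plus strand, the first of its 2 listed starts), the 2 chosen genes with the largest folds among the 5 tested. The rest are windows around the matches of Stat2 (chr10:128270266-128270295, plus strand), Ifit1 (chr19:34640775-34640823, plus strand), Isg15 (chr4:156200865-156200906, minus strand) and Ifitm3 (chr7:141010716-141010742, minus strand, just after the start).
Bst2: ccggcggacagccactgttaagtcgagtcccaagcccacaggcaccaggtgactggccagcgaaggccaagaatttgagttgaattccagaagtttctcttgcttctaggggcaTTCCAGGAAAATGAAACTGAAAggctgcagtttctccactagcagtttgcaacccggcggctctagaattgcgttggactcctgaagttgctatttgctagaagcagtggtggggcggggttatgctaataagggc
Irf1: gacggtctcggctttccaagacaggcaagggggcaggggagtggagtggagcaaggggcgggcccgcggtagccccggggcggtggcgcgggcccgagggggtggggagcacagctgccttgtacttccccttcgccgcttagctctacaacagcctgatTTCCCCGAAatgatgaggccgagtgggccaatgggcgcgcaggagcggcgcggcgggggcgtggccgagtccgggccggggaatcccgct
Stat2: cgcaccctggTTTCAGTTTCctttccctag
Ifit1: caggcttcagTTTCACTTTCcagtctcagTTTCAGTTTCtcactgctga
Isg15: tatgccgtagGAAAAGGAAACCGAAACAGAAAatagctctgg
Ifitm3: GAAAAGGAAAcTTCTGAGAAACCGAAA

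Bst2 held 2 overlapping ISRE matches, from positions -130 and -124, and a GAS match from -136 whose last 3 letters are the first 3 of the ISRE run. Isg15 held 3 overlapping ISRE matches, Ifit1 held 2, Ifitm3 held 2 with a GAS match that overlaps the second, and Stat2 held 1. Irf1 held a GAS match from -90 before its first start, no ISRE letters, and neither pattern at its second start. Neither pattern occurred in the window of Irf7 or in those of the 2 listed starts of Irf9. A match is a description of letters, not a measured binding site.

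Bst2 (ENSMUSG00000046718, chromosome 8) was the most abundant of the 9 and stood higher in the exposed cells. Its level was 74.7, 70.2 and 70.3 FPKM in SMF 1, 2 and 3, against 58.4, 61.3 and 58.7 FPKM in Control 2, 3 and 4. All 3 SMF values exceeded all 3 control values, and SMF 1 was the highest of all. The means were 71.7 ± 2.57 FPKM in SMF and 59.5 ± 1.62 FPKM in control libraries (SD, n = 3 each), a ratio of 1.21. Folds are log2 differences of FPKM + 1 unless limma-voom is named, and this scale makes changes of low genes look smaller. The fold was 0.27 with a standard error of 0.04 (95% interval 0.17 to 0.36). This fold ranked 327 from the top among the 11114 tested genes, whose folds had a median of -0.01 and a middle 95% from -0.25 to 0.29. Bst2 is short, at 903 bases of exon. After a joint correction for GC content and exon length within each library, the fold was 0.16 with a standard error of 0.04. The part of either one alone in this drop was not tested. All 3 corrected SMF values still lay above the controls, by 0.08 on the log2 scale between the nearest pair.

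**Figure D1:**
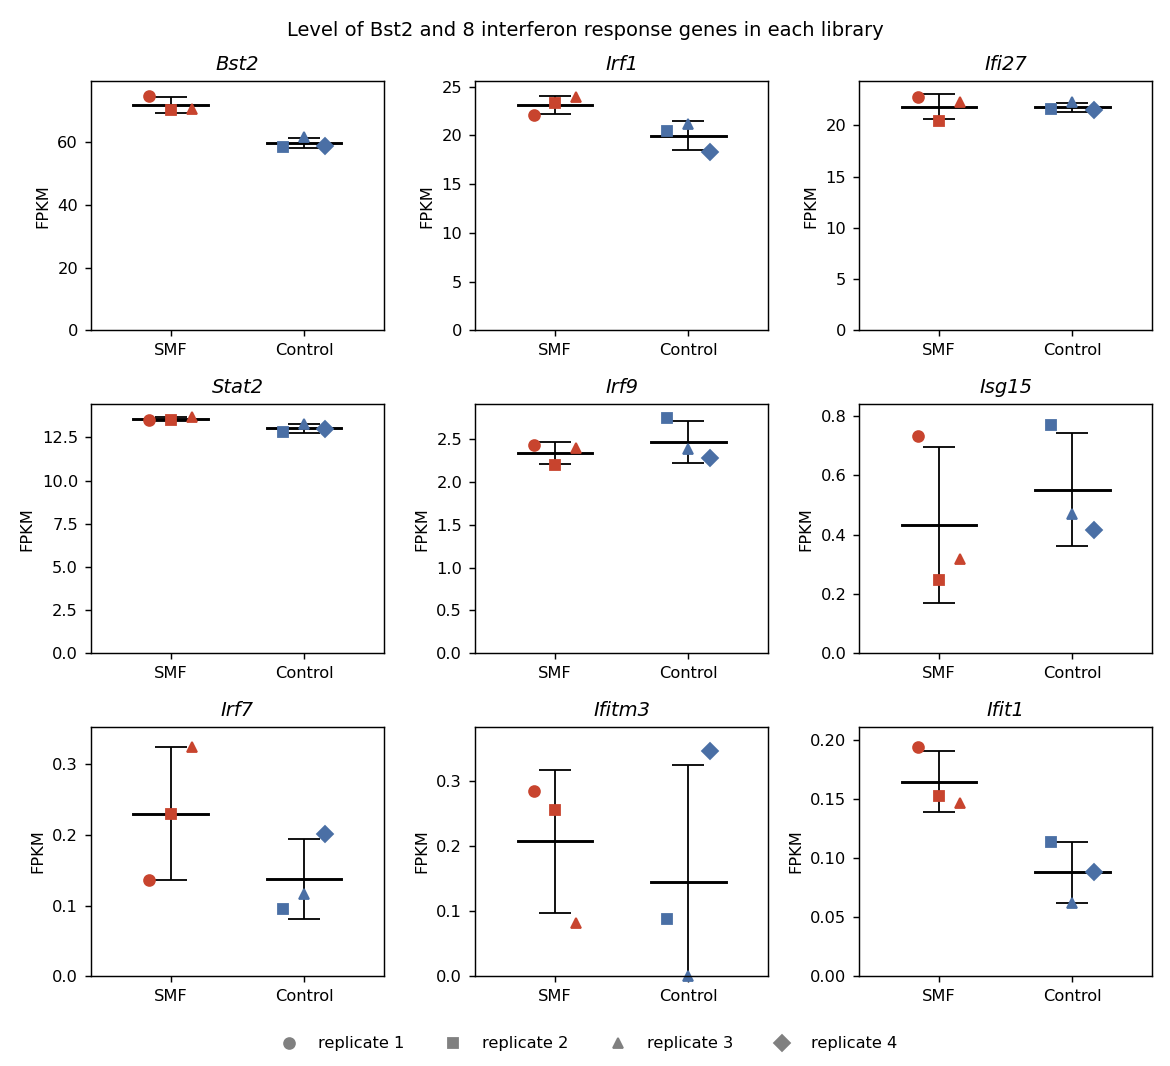
FPKM of the 9 genes in each library (vertical axes start at 0 and differ between panels), SMF libraries at the left and control libraries at the right, with the mean as a horizontal line and the SD as an error bar (n = 3 each). Bst2 lies at 70.2 to 74.7 FPKM in SMF libraries and 58.4 to 61.3 in control libraries, whereas Ifi27 overlaps between the groups and Isg15, Irf7, Ifitm3 and Ifit1 stay under 1 FPKM in all 6.

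Among the transcription factors of the pathway, Irf1 showed the nearest difference to that of Bst2. Irf1 (ENSMUSG00000018899, chromosome 11), an early response factor that activates interferon and antigen presentation genes, was at 22.1, 23.3 and 24.0 FPKM in SMF 1, 2 and 3, against 20.4, 21.2 and 18.3 FPKM in Control 2, 3 and 4. The groups did not overlap, with Control 4 the lowest library. The fold was 0.20 ± 0.06 (standard error; 95% interval 0.07 to 0.34), and 0.18 with GC content and length corrected for. Without Control 4 it was 0.15.

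Stat2 (ENSMUSG00000040033, chromosome 10), the STAT found in ISGF3, was at 13.5, 13.5 and 13.7 FPKM in the SMF libraries, against 12.8, 13.3 and 13.0 FPKM in the controls. The SMF values lay just above the control values, and the fold of 0.06 had a 95% interval of -0.04 to 0.15. Irf9 (ENSMUSG00000002325, chromosome 14), the DNA-binding partner of Stat2 in ISGF3, was at 2.43, 2.19 and 2.40 FPKM in the SMF libraries, against 2.74, 2.38 and 2.28 FPKM in the controls. The groups overlapped, with a fold of -0.05 (95% interval -0.25 to 0.14). The exons of Irf9 overlap those of Rnf31 on the same strand, so the reads of these genes may be mixed. Irf7 (ENSMUSG00000025498, chromosome 7), which amplifies the interferon response, was nearly silent, at 0.137, 0.230 and 0.324 FPKM in the SMF libraries, against 0.0957, 0.116 and 0.202 FPKM in the controls. These values stand for 45 reads in SMF and 27 reads in control libraries. The ratio, scaled to the library totals, was 1.70 (exact 95% counting interval 1.03 to 2.85, which covers counting error only). The libraries of the groups overlapped, and its exons overlap Phrf1 on the other strand, and whether the counting used strand is not stated; the same holds for Irf1 and Gm17334.

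Of the effector genes other than Bst2, Ifi27 was well expressed and Ifit1, Isg15 and Ifitm3 were close to absent in both groups. Ifi27 (ENSMUSG00000064215, chromosome 12), a small hydrophobic membrane protein, was at 22.8, 20.5 and 22.3 FPKM in the SMF libraries, against 21.6, 22.2 and 21.5 FPKM in the controls. SMF 1 was the highest and SMF 2 the lowest of the 6, the groups overlapped, and the fold was 0.00 (95% interval -0.11 to 0.12). Ifit1 (ENSMUSG00000034459, chromosome 19), which binds RNA with foreign caps, was at 0.194, 0.153 and 0.147 FPKM in the SMF libraries, against 0.113, 0.0621 and 0.0884 FPKM in the controls. No library of the groups overlapped, but the values stand for 22 reads in SMF and 12 reads in control libraries, a ratio of 1.87 (exact 95% counting interval 0.89 to 4.15).

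Isg15 (ENSMUSG00000035692, chromosome 4), a ubiquitin-like protein that is joined to other proteins during the response, was at 0.733, 0.247 and 0.317 FPKM in the SMF libraries, against 0.771, 0.469 and 0.418 FPKM in the controls. SMF 1 and Control 2 were the highest, the groups overlapped, and 15 reads in SMF against 20 reads in control libraries gave a ratio of 0.77 (counting interval 0.36 to 1.57). Ifitm3 (ENSMUSG00000025492, chromosome 7), which blocks virus entry from endosomes, was at 0.285, 0.256 and 0.0821 FPKM in the SMF libraries, against 0.0888, 0 and 0.346 FPKM in the controls. That is 7 reads in SMF and 5 reads in control libraries, a ratio of 1.43 (0.39 to 5.71), and the 0 in Control 3 allows up to 0.243 FPKM (3 counts). The counting intervals of Ifit1, Isg15 and Ifitm3 held both a ratio of 1 and the 1.21 of Bst2. At this depth a difference of that size could not be told from none in these genes. The interval of Irf7 (1.03 to 2.85) held 1.21 and lay above 1. It covers counting error only, and the Irf7 values of the groups overlapped. Ifitm and Ifit genes have near-identical copies, and the sources used here do not say how reads that map to several places were counted.

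The order of levels per length, from high to low, was Bst2, then Ifi27 and Irf1, which overlapped, then Stat2, then Irf9, then Isg15, Irf7, Ifitm3 and Ifit1 under 1 FPKM, where each overlapped its neighbours. By limma on log2(FPKM + 1), with Benjamini-Hochberg adjustment over all 11114 tested genes, 0% of genes passed the threshold of 0.05 in either direction, and so none of the 5 tested members did. At an unadjusted p under 0.05 limma gave 1998 genes (18%), 1046 of them (9.41%) higher in SMF, 2 of the 5 members included. By limma-voom on whole reads recovered from the FPKM values, 242 genes (2.18%) passed as higher in SMF and 268 (2.41%) as lower. Bst2 and Irf1 were among those higher, and nothing is read from that count because the comparison was known when the genes were listed. Both left the list in that fit when any of 4 libraries was left out (Control 2, Control 4, SMF 1 or SMF 3). They also left it once GC content and length were corrected for, where the limma-voom fold was 0.14 for Bst2 and 0.19 for Irf1, against 0.27 and 0.21 uncorrected. All SMF libraries lay above all controls for Bst2, Irf1 and Stat2, 3 of the 5 tested. That pattern was found in 11% of all tested genes. Nothing is read from these counts of the 5 members, since Bst2 was picked for its difference and the others were listed with the comparison known.

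**Figure D2:**
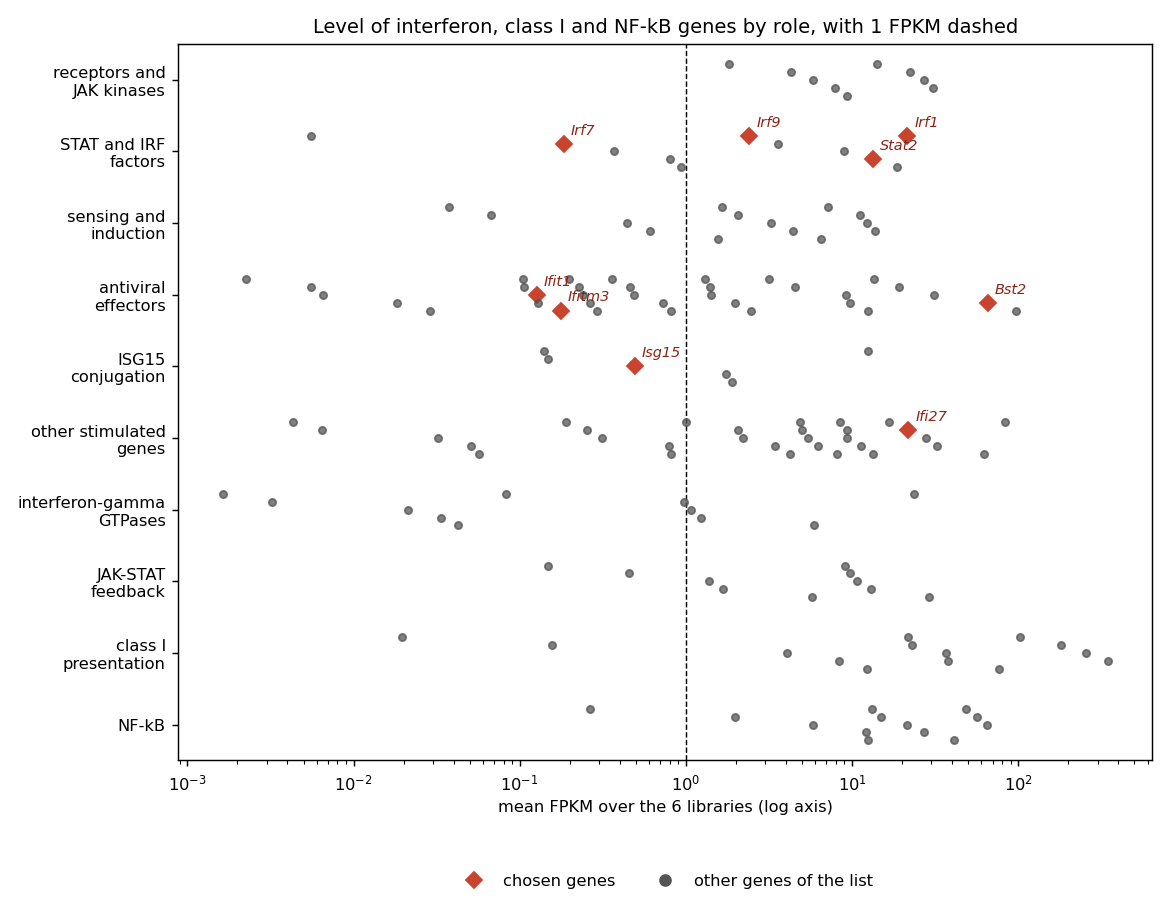
Mean FPKM over the 6 libraries (log axis) of the interferon, class I antigen presentation and NF-kB genes, by role, with the 9 chosen genes as red diamonds and genes at 0 in every library left out. Bst2 and Ifi27 stand right of the dashed line at 1 FPKM, whereas Ifit1, Ifitm3, Isg15 and Irf7 stand left of it.

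The wider pathway was described with 9 lists by role, which held 131 genes outside the 9. Of these, 118 were in the table, 45 of them under 1 FPKM in every library, and 70 passed the filter. Of the 70, 40 had a fold above 0 and 30 below, with a median of 0.01, against 5189 above and 5925 below and a median of -0.01 over all tested genes. No gene of the 70 passed limma. At an unadjusted p under 0.05 limma gave 9 of the 70 in either direction, against 18% of all tested genes. By limma-voom 1 passed as higher, Slfn2, and none as lower, while 4.59% of all tested genes passed in either direction. SMF libraries lay above all controls for 8 of the 70, against 11% of all tested genes, and below all controls for 3, against 12.7%. Named here after their values were seen, the 8 were Ticam1, Ikbke, Plscr1, Ifi35, Parp10, Lgals3bp, Znfx1 and Slfn2. The 3 were Tank, an adaptor of interferon induction, with a fold of -0.18, Pias1, an inhibitor of STAT activity, with -0.17, and Dtx3l, a ubiquitin ligase, with -0.12.

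Ligands and receptors came first in the pathway. Of 11 interferon genes listed, only Ifne was in the table used here, at 0.181 FPKM in Control 2 and 0 in the other libraries, SMF included. All 9 receptor and JAK kinase genes were tested, 5 with a fold above 0 and 4 below (median 0.02), and none passed. Ifngr1, a chain of the interferon gamma receptor, averaged 31.2 ± 0.483 FPKM in SMF and 30.6 ± 1.93 FPKM in control libraries. Jak2, a kinase of that receptor, averaged 26.4 ± 2.03 FPKM in SMF and 27.8 ± 0.798 FPKM in control libraries. The receptors were thus present at levels that overlapped between the groups.

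Outside the 9 genes, 7 STAT and IRF genes were in the table and 3 were tested, with 3 folds above 0 and none passing. Irf3, which switches on interferon genes, averaged 18.9 ± 1.01 FPKM in SMF and 18.5 ± 0.161 FPKM in control libraries. Stat3 averaged 8.92 FPKM in both groups, with SDs of 0.253 in SMF and 0.327 in control libraries.

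Genes that sense viral nucleic acid and induce interferon gave 6 folds above 0 and 4 below among 10 tested (median 0.03), with none passing. Mavs, the mitochondrial adaptor of RNA sensing, averaged 13.7 ± 0.286 FPKM in SMF and 13.9 ± 0.591 FPKM in control libraries. Traf3, a ligase downstream of it, averaged 12.5 ± 0.853 FPKM in SMF and 11.9 ± 0.410 FPKM in control libraries. Outside the naming rule and singled out after their values were seen, Ticam1, the adaptor of TLR3, was at 7.76, 6.85 and 6.96 FPKM in SMF and 6.40, 5.75 and 5.46 FPKM in control libraries. Its fold of 0.25 was near that of Bst2 and did not pass (adjusted p = 0.171 by limma and 0.0941 by limma-voom).

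Of 32 antiviral effectors in the table beside Bst2, Ifit1 and Ifitm3, 18 were under 1 FPKM in every library, and the 14 tested gave 6 folds above 0 and 8 below (median -0.03). Mx1, Rsad2 and Oas2, antiviral genes that interferon strongly induces and that were chosen after their values were seen, reached at most 0.153, 0.0257 and 0.0135 FPKM in any library. Plscr1, a lipid scramblase, was the most abundant and averaged 100.1 ± 3.34 FPKM in SMF and 94.0 ± 1.87 FPKM in control libraries (fold 0.09, adjusted p = 0.259 by limma). Isg20, an exonuclease, averaged 31.9 ± 4.85 FPKM in SMF and 30.1 ± 2.24 FPKM in control libraries. In the Ifitm family, chosen after the values were seen, Ifitm2 was at 25.5, 17.2 and 21.6 FPKM in SMF and 18.4, 18.6 and 13.8 FPKM in control libraries, with overlapping groups (fold 0.32, 95% interval -0.02 to 0.66), while Ifitm1 was listed at 0 in 5 of 6.

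The genes that conjugate ISG15 gave 2 folds above 0 and 1 below among 3 tested, none passing. Trim25, a ligase, averaged 12.3 ± 0.537 FPKM in SMF and 12.6 ± 0.432 FPKM in control libraries. Ube2l6, the conjugating enzyme, averaged 2.06 ± 0.240 FPKM in SMF and 1.74 ± 0.370 FPKM in control libraries. Usp18, also chosen after its values were seen, removes ISG15 and is strongly induced by interferon. It stayed between 0.0591 and 0.274 FPKM in all 6 libraries.

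Other interferon-stimulated genes gave 14 folds above 0 and 6 below among 20 tested (median 0.02). Lgals9, a secreted galectin, averaged 85.0 ± 5.53 FPKM in SMF and 81.2 ± 0.612 FPKM in control libraries, and Lgals3bp, a galectin-binding protein, averaged 64.3 ± 2.45 FPKM in SMF and 59.9 ± 1.64 FPKM in control libraries. The gene that passed limma-voom, Slfn2, a Schlafen protein of immune cells, was named after its values were seen. It was at 35.7, 34.8 and 35.7 FPKM in SMF 1, 2 and 3, against 27.2, 31.9 and 29.0 FPKM in Control 2, 3 and 4. Its limma-voom fold was 0.27 (adjusted p = 0.0256), a call lost when Control 2, Control 4, SMF 1 or SMF 3 was left out (adjusted p up to 0.147) and also with GC content and length corrected for (fold 0.22, adjusted p = 0.0891).

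Ifi35 and Parp10, named after their values were seen, had folds of 0.26 each without passing, with adjusted p = 0.159 and 0.219 by limma. Among GTPases induced by interferon gamma, 4 of 11 were tested, with 3 folds above 0 and 1 below and none passing. Irgm1, which acts on membranes around pathogens, averaged 23.5 ± 0.529 FPKM in SMF and 23.9 ± 0.371 FPKM in control libraries. Gbp9 averaged 6.20 ± 0.396 FPKM in SMF and 5.63 ± 0.228 FPKM in control libraries. Feedback inhibitors of JAK-STAT signalling gave 1 fold above 0 and 7 below among 8 tested (median -0.05), none passing. The phosphatase Ptpn11 averaged 28.5 ± 1.10 FPKM in SMF and 29.3 ± 0.373 FPKM in control libraries, and Socs3, a direct STAT target, 12.6 ± 0.154 FPKM in SMF and 13.2 ± 1.14 FPKM in control libraries.

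**Figure D3:**
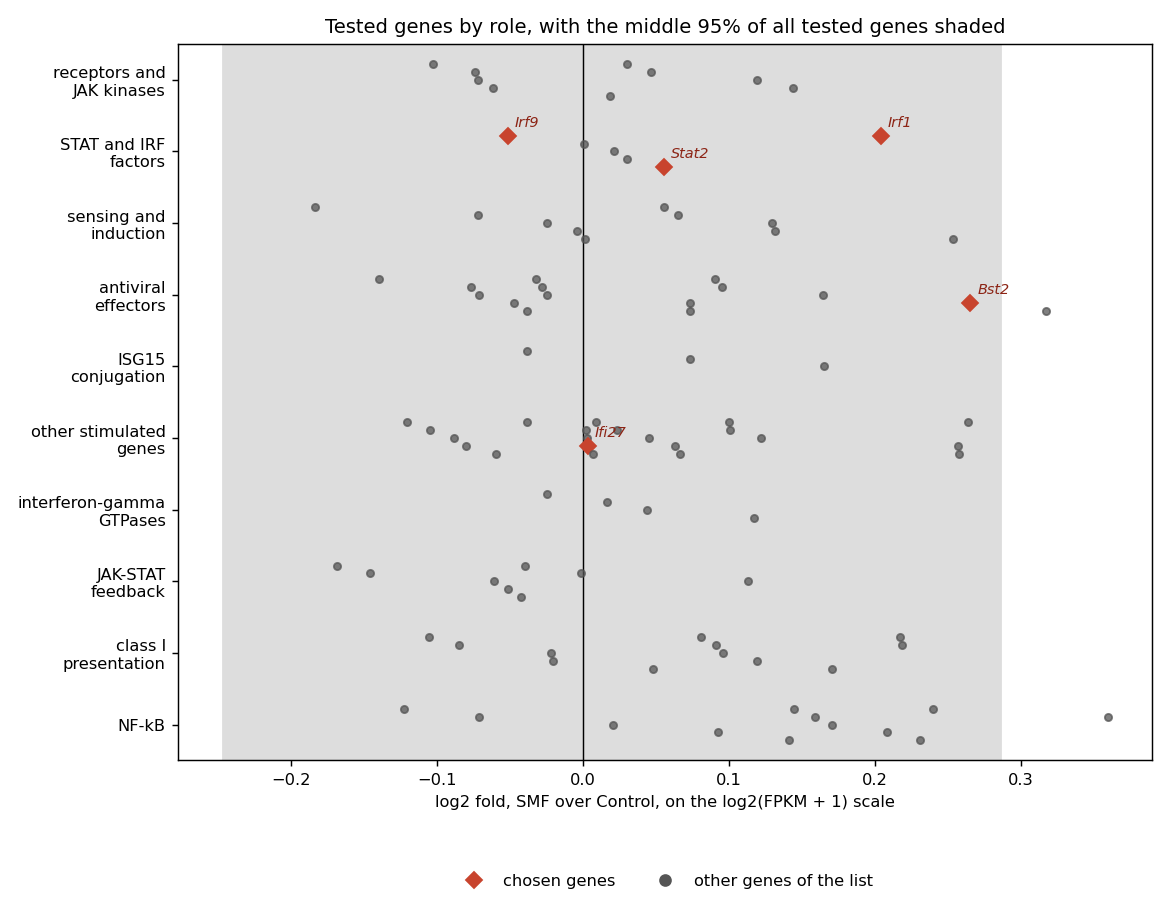
Log2 fold of SMF over control libraries, on the log2(FPKM + 1) scale, of each tested gene by role, with the middle 95% of all 11114 tested genes shaded (-0.25 to 0.29) and the chosen genes as red diamonds. Bst2 at 0.27 and Irf1 at 0.20 lie inside the shaded band, in its right part, while Ifi27 at 0.00, Stat2 at 0.06 and Irf9 at -0.05 lie near its middle.

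Genes with ISRE letters in the promoter were described as a group, Bst2 among them. Of 113 pathway genes with a promoter in the RefSeq table, the 9 included, 43 held the ISRE letters (38.1%), and 18 of these were tested. Over all tested genes, the 274 whose promoter held the letters had a median fold of 0.01, and the 8043 whose promoter lacked them had a median fold of -0.01. The share with every SMF library above every control was 12.8% among genes with the letters and 10.9% among genes without. By limma-voom 11 genes with the letters passed as higher in SMF (4.01%), and 147 genes without them (1.83%). The 11 include Bst2, which was picked for its difference. For the GAS letters, 14 of 665 tested genes with them passed as higher (2.11%), and 144 of 7652 without them (1.88%). The median fold was -0.01 both with and without the GAS letters. No test was run between any of these shares. Folds of the 18 pathway genes with the ISRE letters ran from -0.07 for Eif2ak2 to 0.32 for Ifitm2, with Bst2 second at 0.27.

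Class I antigen presentation and NF-kB genes were the gene groups compared with the pathway, since class I genes respond to interferon and NF-kB genes to inflammatory signals. The test of a difference between groups of genes was not run, and each is described by its counts. In the class I list 8 of 12 tested genes had a fold above 0 and 4 below (median 0.09, and 0.04 with GC content and length corrected for). For 4 of them, H2-K1, H2-D1, Psme2 and Calr, all SMF values exceeded all control values, a pattern found in 11% of all tested genes. The list was chosen with earlier results known, so nothing is read from this count. H2-K1 had a fold of 0.17 and did not pass (adjusted p = 0.210 by limma and 0.105 by limma-voom). H2-D1, a class I heavy chain whose copies make its count uncertain, was named after its values were seen and was at 82.2, 83.2 and 82.9 FPKM in SMF and 69.6, 72.5 and 71.0 FPKM in control libraries. It passed limma-voom (fold 0.22, adjusted p = 0.00645) and not limma (adjusted p = 0.105), and the limma-voom call was lost without Control 4 (adjusted p = 0.0765) and after the correction (0.0734). Calr, a chaperone, averaged 359.1 ± 5.17 FPKM in SMF and 336 ± 12.0 FPKM in control libraries. B2m, the light chain, averaged 262.8 ± 0.643 FPKM in SMF and 248.7 ± 15.1 FPKM in control libraries.

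In the NF-kB list 10 of 12 tested genes had a fold above 0 and 2 below (median 0.15, and 0.10 after the correction). For 6 of them all SMF values exceeded all control values, a pattern found in 11% of all tested genes. None passed limma, and 3 passed limma-voom as higher, against 2.18% of all tested genes. Those 3 were Relb, Nfkbie and Tnip1, named after their values were seen. The list was chosen with earlier results of these data known, so nothing is read from these counts. Relb, a subunit of the noncanonical pathway, had a limma-voom fold of 0.38 (adjusted p = 0.00424) that held in 5 of 6 fits with a library left out (adjusted p = 0.0652 without Control 4) and after the correction (fold 0.33, adjusted p = 0.0128). Nfkbie, an inhibitor of NF-kB, and Tnip1, which restrains its activation, passed at adjusted p = 0.0427 and 0.0393 by limma-voom, and with a library left out only without SMF 2. With GC content and length corrected for, neither call held (adjusted p = 0.170 for Nfkbie and 0.337 for Tnip1), and the limma-voom fold of Tnip1 was 0.09, against 0.16 uncorrected. Rela averaged 66.8 ± 1.53 FPKM in SMF and 62.7 ± 2.38 FPKM in control libraries, and Nfkb2 averaged 59.8 ± 1.94 FPKM in SMF and 53.2 ± 5.40 FPKM in control libraries.

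Genes that lie near Bst2 on chromosome 8 were examined for a difference of the same size. In the RefSeq order Mvb12a follows Bst2 directly, and 6 of the 7 nearby genes in the table were tested. All 6 had a fold above 0, against 5189 of all 11114 tested genes. Their median fold was 0.12, and 0.06 with GC content and length corrected for. For 3 of the 6, Gtpbp3, Dda1 and Pgls, all SMF values exceeded all control values, a pattern found in 11% of all tested genes. Whether the nearby genes differ from all tested genes was not tested. Mvb12a, of the ESCRT-I sorting complex, was at 20.3, 17.6 and 19.4 FPKM in SMF and 16.9, 19.3 and 15.7 FPKM in control libraries, with overlapping groups and a fold of 0.14. Pgls, an enzyme of the pentose phosphate pathway, passed limma-voom (fold 0.24, adjusted p = 0.0196), a call lost without Control 2, Control 4, SMF 1 or SMF 3 and after the correction (adjusted p = 0.0891). The others had folds of 0.20 for Gtpbp3, 0.11 for Dda1, 0.09 for Slc27a1 and 0.05 for Ano8, none passing either test.

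The 5 genes whose level followed that of Bst2 most closely, by Pearson's r of log2(FPKM + 1) over the 6 libraries among 7123 genes with a mean of at least 5 FPKM, were Vegfb, Gpr108, Trim8, Ndufa12 and Mtch1, with r = 0.997, 0.994, 0.992, 0.991 and 0.991. A high r over 6 libraries in 2 groups mostly restates the group difference, and 120 of those genes had an r over 0.95. Vegfb averaged 85.9 ± 2.71 FPKM in SMF and 73.3 ± 1.45 FPKM in control libraries. Of the chosen genes, Stat2, Irf1 and Ifi27 were among the 7123, with r of 0.89, 0.80 and 0.22 with Bst2. Irf9, at a mean under 5 FPKM and so outside that search, had an r of -0.34.

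**Figure D4:**
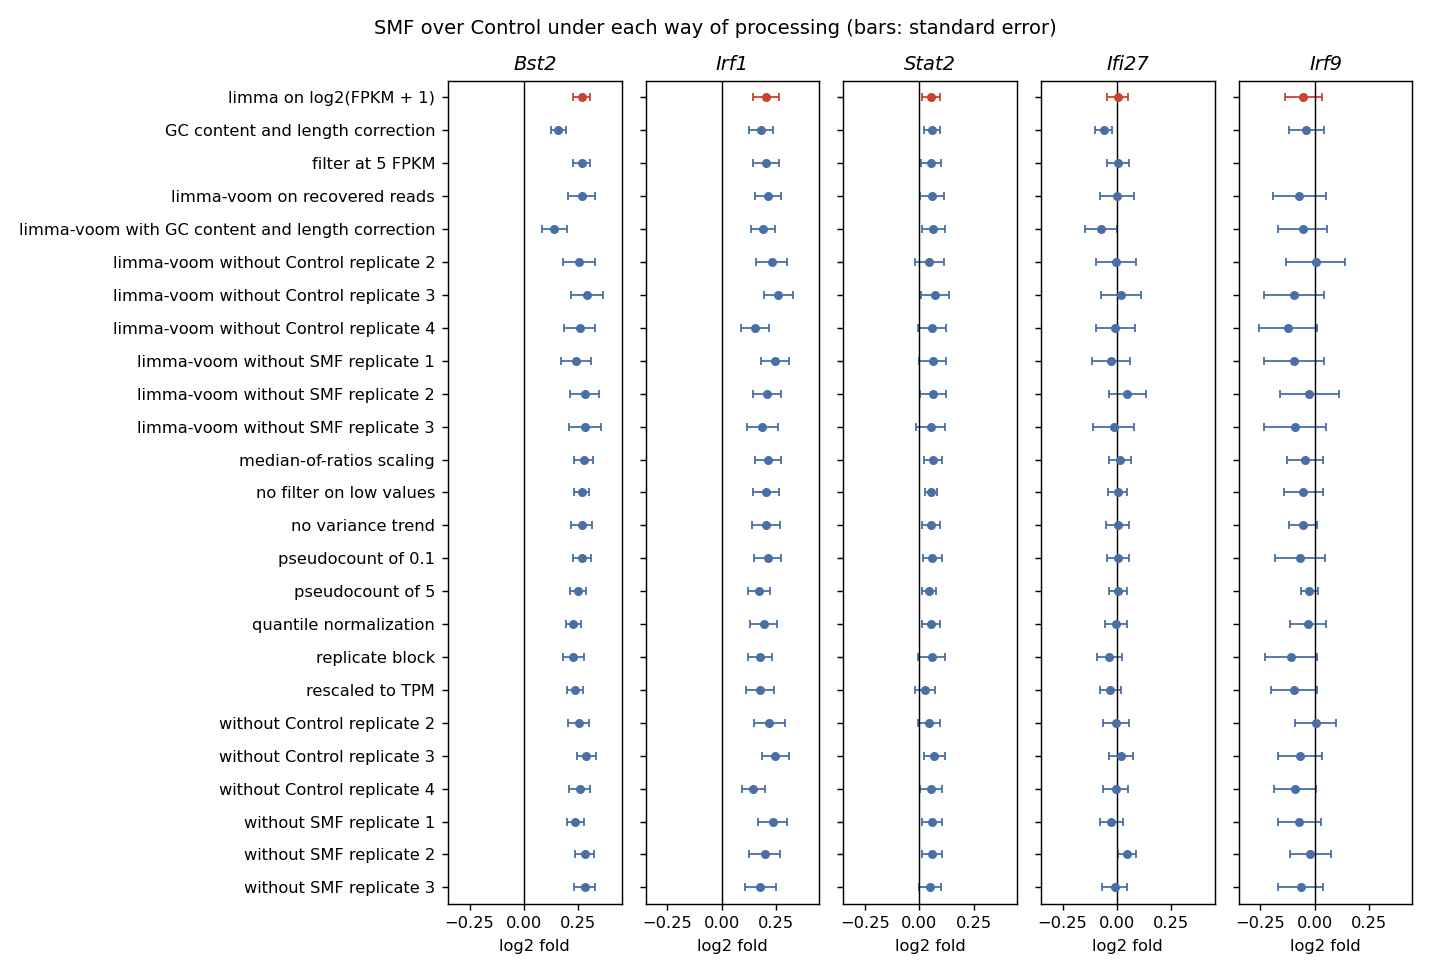
Log2 fold of SMF over control libraries for the 5 tested members under each way of processing, with standard errors as bars (limma fits on the log2(FPKM + 1) or stated scale, limma-voom fits on reads). Bst2 stays right of 0 throughout, from 0.14 to 0.29, and Ifi27 and Irf9 cross 0.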

How the data were processed

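The values were FPKM (fragments per kilobase of gene, scaled to the library total), deposited by the authors, 1 file per library. Per the submitters' processing notes, HISAT2 2.1.0, Bowtie2 2.2.3 and build GRCm39 were used, with no role or order given. The sources used here name neither the annotation release nor the counting tool. GENCODE M21 named 23521 of 23886 identifiers and gave exon length, transcript GC content and overlaps. Whole reads were recovered for 22003 of 22004 genes above 0, of which 21323 gave them with the M21 exon length. For the rest, the first length tried that gave whole reads in all 6 libraries was taken, so their recovery is no check. The tolerance was 0.02 reads, and wider for the highest counts.

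SMF was compared with control libraries on log2(FPKM + 1) by the two-sided test of limma 3.58.1 (R 4.3.3), with a trend of the variance on the mean. Alternatives were other pseudocounts, filters and scalings, no variance trend, a replicate block, each library left out, a loess correction (span 0.3) for GC content and length, and limma-voom on recovered reads. Limma was checked on simulated data. Read ratios have exact (Clopper-Pearson) intervals from scipy 1.17.1; these and floors cover counting error only.

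Members and lists were chosen with earlier results of these data known. Named from each list were genes past limma's threshold, otherwise the 2 with the highest mean. Genes named from a list outside this rule were chosen after their values were seen. The corrected limma-voom fit and its fits without 1 library were chosen after seeing the data.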

Additional observations from a re-analysis of the deposited data

How the results depend on the processing

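Bst2 kept a fold above 0 in all 24 alternatives, as did Irf1 and Stat2, while Ifi27 and Irf9 took both signs. For Bst2, Irf1 and Stat2 every SMF value exceeded every control value, so leaving out 1 library could not change the sign. The other settings reused the same libraries, and Bst2 was picked for this difference, so nothing is read from these signs. The fold of Bst2 moved by more than the spread between replicates only under the GC content and length correction, to 0.16, and to 0.14 by limma-voom with it; leaving out 1 library gave 0.24 to 0.29. Genes called higher and lower in SMF numbered 0 and 0 by limma, 6 and 2 with a filter at 5 FPKM, 13 and 6 with the replicate block, 242 and 268 by limma-voom, and 65 and 28 by limma-voom with the correction. With 1 library left out, limma called 0 to 2 higher and 0 to 1 lower, while limma-voom called 115 and 114 without Control 2, 188 and 262 without Control 3, 4 and 4 without Control 4, 37 and 22 without SMF 1, 601 and 864 without SMF 2, and 51 and 26 without SMF 3. Among the pathway genes limma-voom called 1, 2 without Control 3, 4 without SMF 2, and 0 without any of the other libraries. The replicate block rests on numbers 2 and 3, which both groups share; deviations of those libraries correlated at 0.058 and 0.046, so the numbers are not treated as pairs. Few reads limit Irf7, Ifit1, Isg15 and Ifitm3.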

Other observations

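Markers of other cell types gave uneven levels in this hepatocyte line. Cd14, a lipopolysaccharide co-receptor used as a monocyte marker, was at 203, 198 and 214 FPKM in SMF and 173, 193 and 183 FPKM in control libraries, while Ptprc, the pan-leukocyte antigen, reached at most 0.016 FPKM and Itgam at most 0.0222 FPKM in any library. Cd14 passed limma-voom as higher in SMF (fold 0.16, adjusted p = 0.0314) and not limma (adjusted p = 0.174); the limma-voom call was lost without Control 2, Control 4, SMF 1 or SMF 3, and also with GC content and length corrected for (adjusted p = 0.278). Sdc1, a plasma cell marker that epithelia also carry, averaged 109.6 ± 2.41 FPKM in SMF and 105 ± 3.73 FPKM in control libraries.

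Parts of the class I pathway that interferon induces were uneven as well. Psmb8, an immunoproteasome subunit, was listed at 0 in all 6 libraries, and Nlrc5, the class I transactivator, reached at most 0.0496 FPKM. Psmb10, another immunoproteasome subunit, was at 14.0, 13.4 and 12.2 FPKM in SMF and 12.6, 11.9 and 9.30 FPKM in control libraries, with overlapping groups.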
